A study of Bos taurus with 90 samples.

Results

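The comparison concerned the liver of Charolais (CH) steers, castrated males of a beef breed, at the end of the first (H1) and the second (H2) high-concentrate phase of a feeding trial. The libraries were chosen by their labels as all those of CH steers on the H1 diet, 20 in number, and all those of CH steers on the H2 diet, 17 in number. They made up 37 of the 90 libraries of the series, which also holds CH steers offered zero-grazed grass (ZG) and Holstein-Friesian (HF) steers of a dairy breed. Each library came from a punch biopsy of 1 steer. Every CH steer of both phases was offered the same ration, rolled barley with soya bean meal, molasses, minerals and vitamins, with a restricted allowance of grass silage. H1 was offered in the growing phase and H2 in the finishing phase, with grass silage, ZG and grazed grass in between. In each phase the study took the steers most divergent in residual feed intake (RFI), the difference between the feed an animal eats and the amount predicted from its size and gain, so that a low RFI steer is the more feed efficient. H1 had 9 low and 11 high RFI libraries and H2 had 9 low and 8 high RFI libraries, and RFI group was a covariate of the comparison of the phases.

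The 37 libraries carried 33 steer numbers. Steers 1100, 1320, 307 and 364 had a library in both phases, and 29 steers had a library in 1 phase. Steer number 1797 appears under CH in H1 and under HF in H2, and without it 8845 genes were called in the comparison below. Steers 1320 and 364 were high RFI in both phases, steer 1100 went from low to high RFI, and steer 307 went from high to low. Because H2 always followed H1, the phase cannot be told apart from the growth and age of the animals, the season, or any difference in handling between the collections.

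The liver of a growing ruminant turns propionate from fermented starch into glucose, breaks down amino acids, and secretes fibrinogen, complement and most other plasma proteins. It is also the main source of the growth factor IGF1 and a target of insulin, which acts through the insulin receptor substrates. Hepatocytes divide in young animals and seldom do so in adults. Inflammation anywhere in the body makes the liver raise acute phase proteins such as haptoglobin, which is a common marker of illness in cattle.

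Between 9134700 and 34173085 reads were counted on genes per H1 library, and between 10579794 and 37835024 per H2 library. The mean depth of H2 differed from that of H1 by 708287 reads, less than the spread between libraries (two-sided permutation test, adjusted p = 0.771 over 4 measures). The distribution of the reads over genes did differ. The 100 most abundant genes took 52.6% ± 2.24 of the reads in H1 (SD, n = 20) and 57.5% ± 3.31 in H2 (SD, n = 17; permutation test, adjusted p = 5.33e-05). It took the 80 most abundant genes to reach 50% of the reads in the median H1 library and 48 genes in the median H2 library (permutation test, adjusted p = 5.33e-05). The factor by which TMM normalization scales a library was 1.09 ± 0.0840 in H1 and 0.910 ± 0.0867 in H2 (permutation test, adjusted p = 5.33e-05). These measures moved with the phase, and their part in the gene results was not tested.

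On the first principal component of the log2 CPM (reads of a gene per 1000000 reads of the library after TMM scaling), which held 41.1% of the variance, 16 of the 17 H2 libraries scored above every H1 library. The exception was the H2 library of steer 454, at -33.1, inside the H1 range of -44.2 to -9.37, and it also had the highest score on the second component, at 60.3. At the other end the H2 library of steer 493 scored 125, against an H2 median of 35. The H2 libraries were more scattered than those of H1. The SD of the first score was 36.9 in H2 and 11.1 in H1, and the median gene had an SD of 0.42 on the log2 scale in H2 and 0.27 in H1. Without the H2 libraries of steers 454 and 493 the median SD in H2 was 0.33. Those 2 libraries and the H2 library of steer 419, described below, stand apart, and values without them are given for some of the results that they change.

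**Figure D1:**
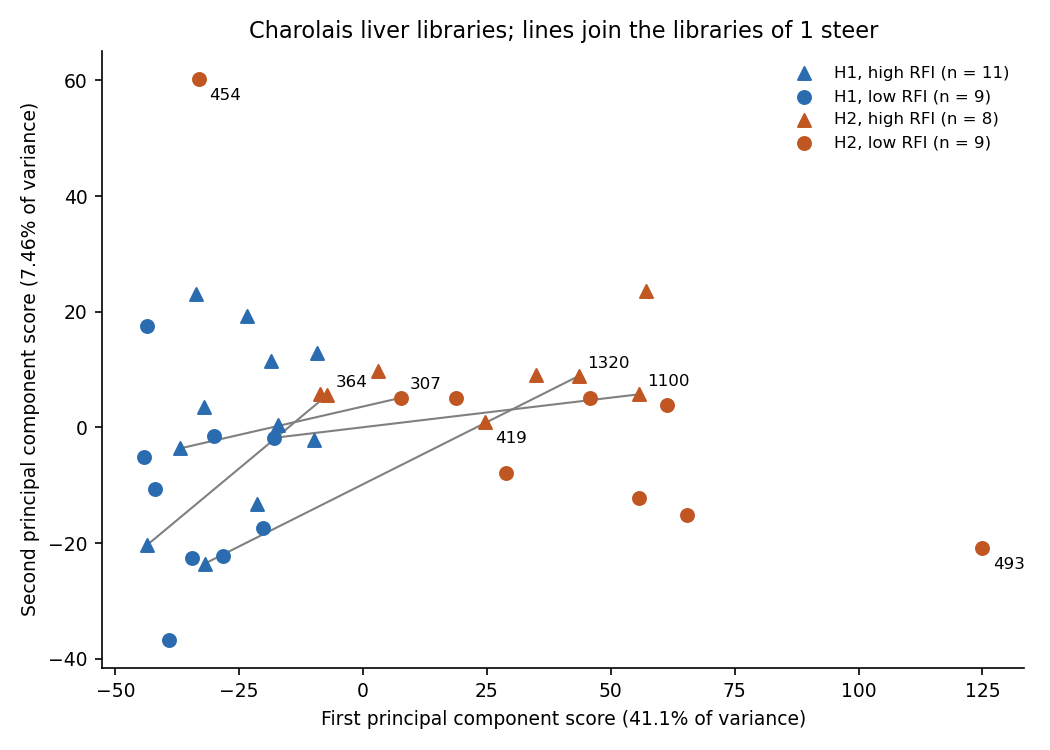
Scores of the 37 CH liver libraries on the first (x axis) and second (y axis) principal component of log2 CPM; blue points are H1, orange points H2, circles low RFI, triangles high RFI, and lines join the 2 libraries of 1 steer. The 4 joined steers all move to the right from H1 to H2, while the H2 library of steer 454 lies at -33.1 on the x axis among the H1 libraries.

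Of 13044 genes tested, 8991 (68.9%) differed between H2 and H1 once p-values were adjusted by Benjamini-Hochberg and held against 0.1, the threshold of the study. There were 4728 genes (36.2%) higher in H2 and 4263 (32.7%) lower. The differences in the 2 directions were of unequal size. The median gene called higher rose by 0.37 on the log2 scale (1.29-fold), and the median gene called lower fell by 0.64 (1.56-fold). At a log2 fold change of at least 1 in either direction, 1001 genes (7.67%) were called, of which 55 (0.422%) were higher and 946 (7.25%) lower. The median log2 fold change over all genes tested was 0.05.

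Direction went with the level of expression. Among the 988 genes with a mean above 100 CPM, 548 (55.5%) were higher in H2 and 156 (15.8%) lower. Among the 1146 genes with a mean under 1 CPM, 166 (14.5%) were higher and 478 (41.7%) lower. The genes called higher had a median level of 18.3 CPM and those called lower one of 7.32 CPM. A full separation of the groups was rare. In 16 genes (0.123%) every H2 library was above every H1 library, and in 34 genes (0.261%) every H2 library was below every H1 library.

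**Figure D2:**
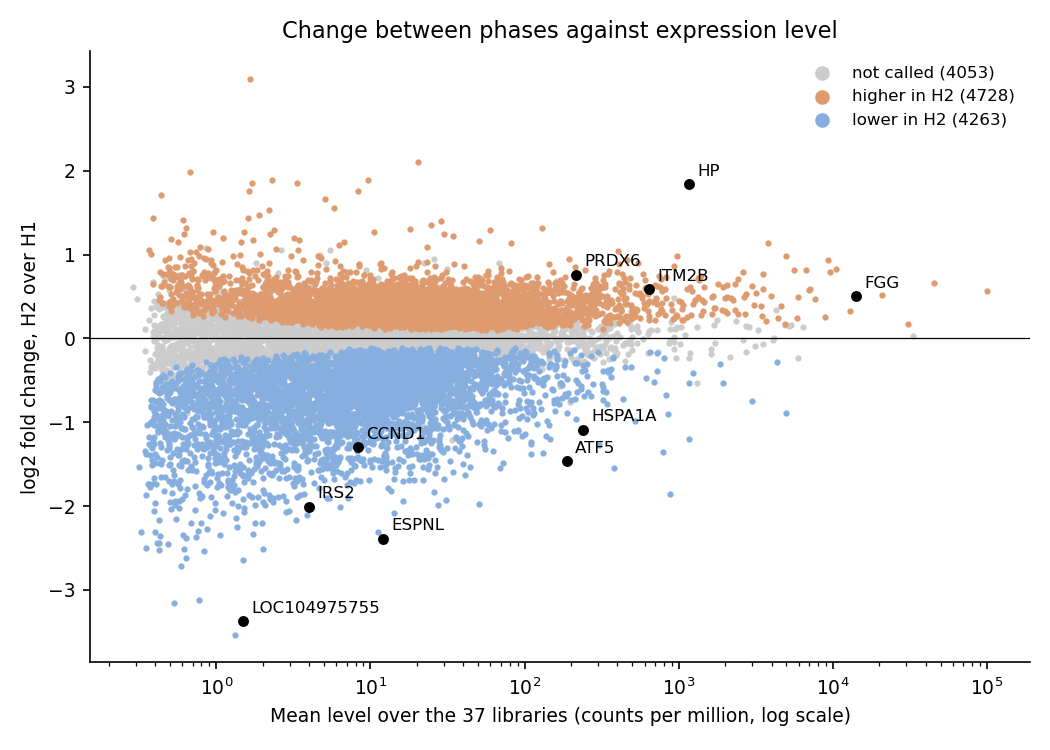
Log2 fold change of H2 over H1 (y axis) against the mean level over the 37 libraries in CPM (x axis, log scale) for the 13044 genes tested; orange genes were called higher in H2, blue genes lower, grey genes were not called, and black points carry the names of 10 genes. Blue genes extend to larger fold changes than orange ones and are most frequent at low levels.

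The deposited counts name genes by Ensembl identifier, and a symbol was available for 328 identifiers only, those that the study listed for RFI. Of these, 321 passed the filter on low counts and 245 (76.3%) were called, 84 higher (26.2%) and 161 lower (50.2%), with a median log2 fold change of -0.32. Over all genes 68.9% were called, 36.2% higher and 32.7% lower, with a median of 0.05, so genes with a symbol already leaned towards lower levels in H2. The study picked these genes for RFI on libraries that include the present ones, so their direction is not independent evidence about the phase. Genes are described below by role, in groups put together after their values were seen, and no group was tested as a whole.

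**Figure D3:**
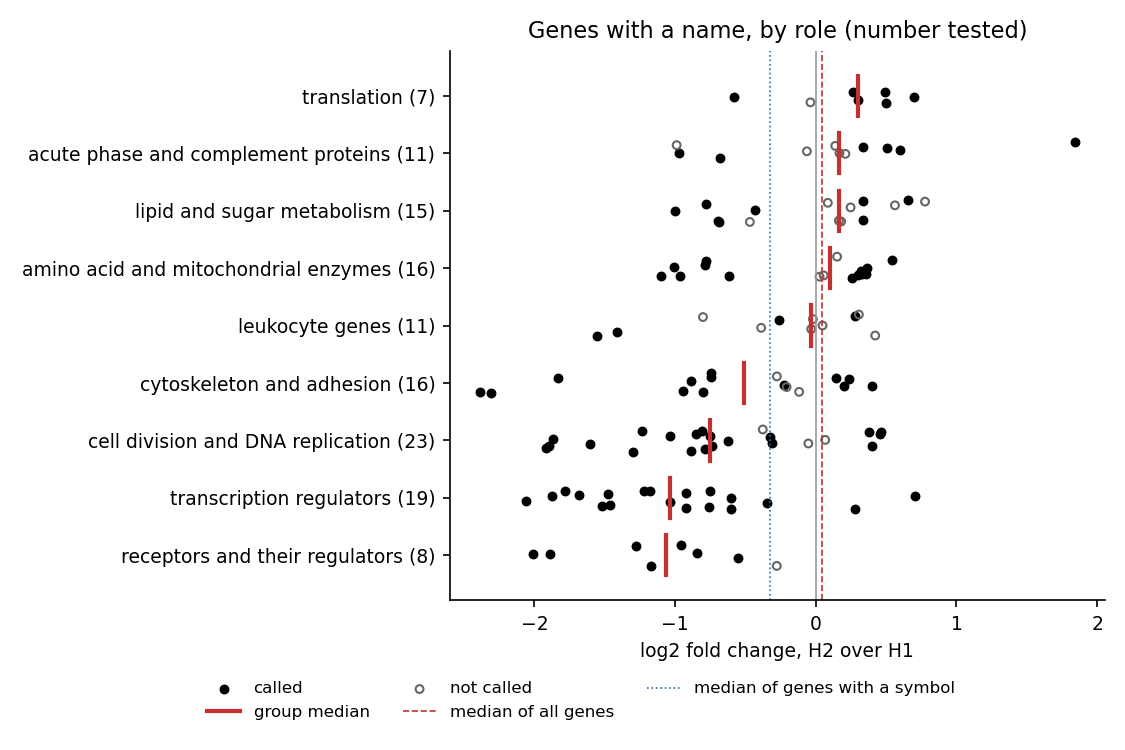
Log2 fold change of H2 over H1 (x axis) for the named genes of each role (y axis, number tested in brackets); filled points were called, open points were not, red bars are group medians the dashed line is the median of all genes and the dotted line that of genes with a symbol. Receptors, transcription regulators and cell division genes lie mostly left of 0, and translation genes mostly right of it.

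Of 23 genes of cell division and DNA replication tested, 16 were lower in H2, 4 were higher and 3 were not called, beside 50.2% lower and 26.2% higher among all genes with a symbol. Their median log2 fold change was -0.75. CCND1 encodes cyclin D1, which drives entry into the cell cycle. Its level ran from 7.94 to 17.0 CPM in H1, with a median of 11.1, and from 1.44 to 9.07 CPM in H2, with a median of 3.67. The groups overlapped in 1 H2 library, and 16 of the 17 H2 libraries lay below every H1 library. CCND1 was 2.46-fold lower in H2 (log2 fold change -1.30 ± 0.19 SE, adjusted p = 4.28e-07).

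MCM2, a subunit of the helicase that opens DNA for replication, had between 3.81 and 13.9 CPM in H1 and between 0.773 and 7.04 CPM in H2. It was lower in H2 by a log2 fold change of -1.23 ± 0.19 (adjusted p = 1.52e-06), and 13 H2 libraries lay below all of H1. The mitotic kinesin KIFC1 and the spindle protein TROAP fell by 1.90 and 1.92 on the log2 scale, at median levels of 2.40 and 2.07 CPM in H1 and of 0.595 and 0.582 CPM in H2. TFDP1, the partner of the E2F factors that switch on replication genes, fell by 0.75, with every H1 library between 11.6 and 23.8 CPM and every H2 library between 5.52 and 14.5 CPM. BUB1 and BUB1B, kinases of the spindle checkpoint, had log2 fold changes of -0.73 ± 0.25 and -1.04 ± 0.25. In the high RFI steers alone neither was called, at -0.20 and -0.48 (adjusted p = 0.628 and 0.178).

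The group was not uniform. SGO2, a protector of centromere cohesion, SASS6, a centriole component, GEN1, a nuclease that resolves DNA junctions, and ANAPC15, a subunit of the anaphase-promoting complex, were higher in H2 by 0.38 to 0.46 on the log2 scale. KIF23, a kinesin of cell separation, had a median of 21.4 CPM in H1 and 21.5 CPM in H2 and was not called. Of the cell cycle list of 40 genes, 5 had a symbol and were tested, and all 5 were lower in H2, with a median log2 fold change of -1.04 beside -0.32 over the genes with a symbol and 0.05 over all genes. In these bulk biopsies, fewer cells of a type and less RNA per cell cannot be told apart.

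Of 19 transcription regulators tested, TFDP1 included again, 17 were lower in H2 and 2 were higher, with a median log2 fold change of -1.04. Among all genes with a symbol 50.2% were lower. The zinc finger gene ZNF205 separated the phases fully. It had between 9.01 and 15.03 CPM in the 20 H1 libraries, with a median of 12.1, and between 2.54 and 8.35 CPM in the 17 H2 libraries, with a median of 4.23. ZNF205 was 2.33-fold lower in H2 (log2 fold change -1.22 ± 0.13, adjusted p = 4.71e-09).

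The zinc finger genes ZNF219, MZF1 and ZXDC fell by 2.06, 1.87 and 1.48 on the log2 scale, each with 16 of 17 H2 libraries below every H1 library. ONECUT1 encodes a liver-enriched factor needed for the hepatocyte and bile duct lineages. It was at 12.4 to 27.8 CPM in H1 and 6.80 to 15.1 CPM in H2, a log2 fold change of -0.76 ± 0.09 (adjusted p = 1.78e-08). ATF5, a stress-responsive factor abundant in liver, had a median of 247.8 CPM in H1 and 53.8 CPM in H2, and fell by 1.46 on the log2 scale with 14 H2 libraries below all of H1. JUN, an immediate early gene, fell by 0.60, and NR0B2, the bile acid responsive repressor SHP, fell by 0.92.

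The 2 regulators that were higher belong to the circadian clock list. NR1D1, the nuclear repressor REV-ERB alpha, had a median of 7.37 CPM in H1 and 10.1 CPM in H2 (log2 fold change 0.71 ± 0.22, adjusted p = 0.00561), and NFIL3, which acts on the same clock genes, had a log2 fold change of 0.28 ± 0.11 (adjusted p = 0.0318). Both overlapped widely between the phases. The third member with a symbol, NOCT, a rhythmic deadenylase, ranged from 2.97 to 48.6 CPM in H1 and from 3.204 to 38.4 CPM in H2 and was not called. The times of day of the biopsies are not given in the sources used here.

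Of 8 receptors and their regulators tested, 7 were lower in H2 and 0 were higher, with a median log2 fold change of -1.06, beside 50.2% lower among all genes with a symbol. IRS2, a substrate through which the insulin receptor acts in liver, had between 1.46 and 11.9 CPM in H1, with a median of 4.33, and between 0.111 and 5.96 CPM in H2, with a median of 1.16. It was 4.02-fold lower in H2 (log2 fold change -2.01 ± 0.29, adjusted p = 5.86e-07), and 12 H2 libraries lay below the lowest H1 library. The highest H2 value, 5.96 CPM, was in the library of steer 454. The lowest, 0.111 CPM in steer 493, is at few reads, so the size of the fall depends in part on low counts.

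FGFR3, a fibroblast growth factor receptor, had medians of 54.9 CPM in H1 and 19.4 CPM in H2 and fell by 1.28 on the log2 scale. The ephrin receptors EPHB4 and EPHA2 fell by 0.84 and 0.96 on that scale. ERRFI1, a feedback inhibitor of the EGF receptor, was the member not called, with medians of 338.0 CPM in H1 and 275.8 CPM in H2 (log2 fold change -0.28 ± 0.17, adjusted p = 0.161). SIK1, a kinase that restrains the gluconeogenic programme and the other gene with a symbol on the growth hormone, IGF and insulin list besides IRS2, had a log2 fold change of -0.58 ± 0.25 (adjusted p = 0.0454). Without the H2 libraries of steers 454 and 493 it was -0.46 (adjusted p = 0.111).

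Of 16 cytoskeleton and adhesion genes tested, 9 were lower, 4 were higher and 3 were not called, shares close to those of all genes with a symbol. ESPNL, an espin-like actin-bundling protein, separated the phases fully, with 10.3 to 35.3 CPM in H1 and 0.663 to 8.54 CPM in H2. It was 5.23-fold lower (log2 fold change -2.39 ± 0.26, adjusted p = 8.55e-09). CROCC, the protein of the ciliary rootlet, had medians of 17.5 CPM in H1 and 2.79 CPM in H2 and fell by 2.31. SSH1, a phosphatase that activates the actin-severing protein cofilin, had 6.39 to 14.02 CPM in H1 and 3.43 to 7.503 CPM in H2 and fell by 0.94 (SE 0.10, adjusted p = 2.99e-09). BCAR1, an adaptor of focal adhesions, fell by 1.83.

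The lowest fold change among genes with a symbol was that of LOC104975755, an uncharacterised locus. It had a median of 2.39 CPM in H1, where no library was at 0 reads, and of 0.112 CPM in H2, where 2 libraries were at 0 reads, and was 10.4-fold lower (log2 fold change -3.38 ± 0.34, adjusted p = 2.99e-09). NOXA1, an activator of an NADPH oxidase, had medians of 1.51 CPM in H1 and 0.211 CPM in H2 and fell by 2.35. Both are at low counts in H2, so their fold changes depend on few reads.

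Genes higher in H2 had smaller fold changes at higher levels. EMC3, a subunit of the complex that inserts membrane proteins into the endoplasmic reticulum, was at 83.0 to 142.2 CPM in the H1 libraries, with a median of 111.9, and at 146.1 to 200.8 CPM in the H2 libraries, with a median of 171.8. No H2 library overlapped with H1. EMC3 was 1.497-fold higher in H2 (log2 fold change 0.58 ± 0.06, adjusted p = 2.37e-09). PCBP2, an RNA-binding protein that stabilises mRNA, also separated the phases, at 154.4 to 226.1 CPM in H1 and 228.4 to 397.2 CPM in H2 (log2 fold change 0.54 ± 0.06).

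IPO5, an importer of proteins into the nucleus, had a median of 72.1 CPM in H1 and 116.1 CPM in H2, with 15 H2 libraries above all of H1 (log2 fold change 0.70 ± 0.07). ITM2B, a membrane protein, had medians of 509.1 and 762.2 CPM in H1 and H2, and the 14-3-3 protein gene YWHAE had medians of 188.2 and 254.5 CPM. Their log2 fold changes were 0.58 ± 0.08 and 0.45 ± 0.07. The endosomal GTPase RAB4A and the membrane protein TMBIM1 rose by 0.50 and 0.45 on the log2 scale.

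**Figure D4:**
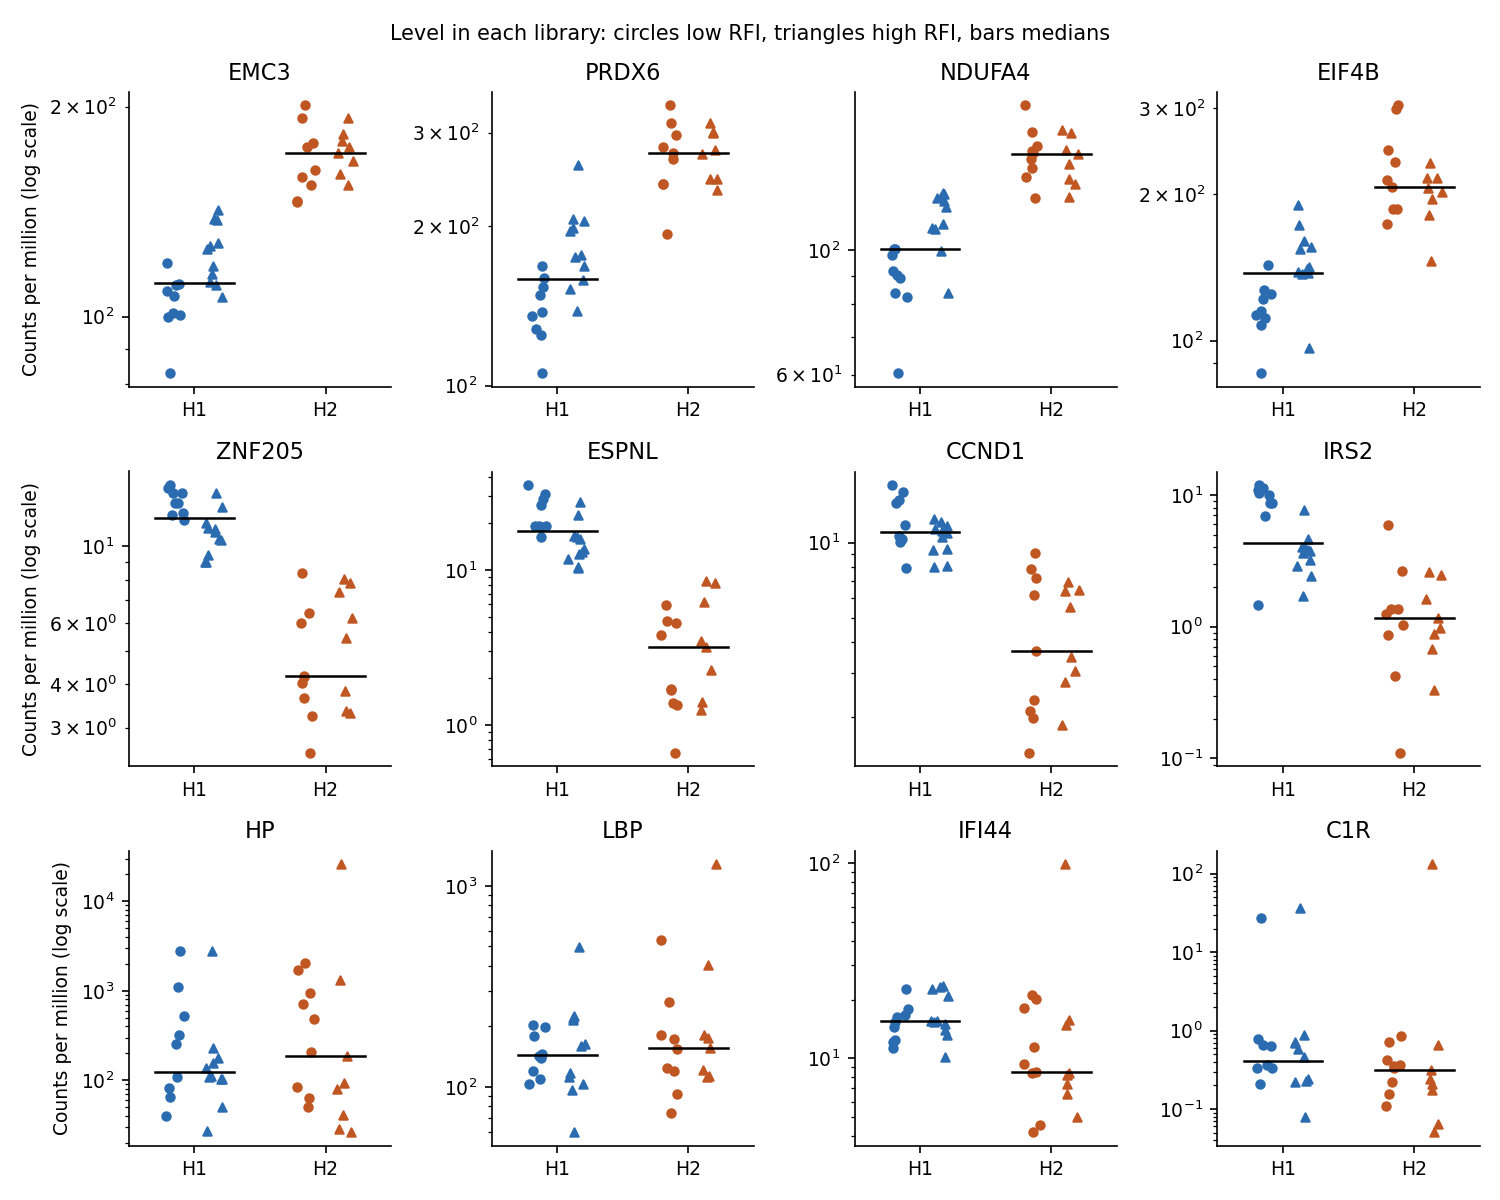
Level of 12 named genes in each library (y axes, CPM on a log scale) by phase (x axes); circles are low RFI and triangles high RFI steers, black bars are medians over the phase, and 2 H1 libraries with no C1R reads are not drawn. EMC3 and ZNF205 separate the phases, IRS2 overlaps in part, and HP, LBP, IFI44 and C1R have libraries far above their medians.

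The oxidative stress list of 26 genes had 2 with a symbol, of which PRDX6 was higher in H2 and OSGIN1 lower. PRDX6, a peroxidase that repairs oxidised phospholipids, had 105.5 to 260.6 CPM in H1 and 193.1 to 337.5 CPM in H2, with medians of 159.0 and 274.9 CPM. It was 1.69-fold higher (log2 fold change 0.76 ± 0.08, adjusted p = 6.28e-09), with 11 H2 libraries above all of H1. FAM213A, a peroxiredoxin-like protein, rose by 0.80. All 5 identifiers with a symbol on the xenobiotic metabolism list of 42 genes were higher in H2, with a median log2 fold change of 0.51 beside -0.32 over the genes with a symbol and 0.05 over all genes. The share called higher was 26.2% among all genes with a symbol and 36.2% over all genes.

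CYP3A5, a cytochrome P450 that oxidises drugs and steroids, had medians of 425.3 CPM in H1 and 638.2 CPM in H2 (log2 fold change 0.64 ± 0.10). The 2 identifiers named GSTM1, a glutathione transferase, had log2 fold changes of 0.81 ± 0.16 and 0.51 ± 0.16. GSTA4, another glutathione transferase, and EPHX1, the microsomal epoxide hydrolase, had log2 fold changes of 0.51 ± 0.14 and 0.46 ± 0.12. The glutathione transferase and cytochrome P450 genes belong to families with closely similar copies whose reads could be split between identifiers. OSGIN1, an oxidative stress induced growth inhibitor, had 121.7 to 312.6 CPM in H1 and 8.95 to 175.4 CPM in H2 (log2 fold change -1.36 ± 0.24, adjusted p = 1.35e-05).

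Both heat shock genes with a symbol were lower in H2, beside 50.2% lower among all genes with a symbol. HSPA1A, the inducible HSP70, had a median of 281.7 CPM in H1 and 148.5 CPM in H2 (log2 fold change -1.09 ± 0.18, adjusted p = 4.01e-06), and it has near-identical copies. HSPB1, the small heat shock protein HSP27, had medians of 193.0 and 95.1 CPM (log2 fold change -0.73 ± 0.17). For HSPB1, 13 H2 libraries lay below all of H1 while the H2 library of steer 454, at 309.6 CPM, lay above all of H1. For SARDH, described below, the library of steer 454 was likewise above all of H1.

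Of 7 translation genes tested, 5 were higher, 1 was lower and 1 was not called, beside 36.2% higher over all genes and 26.2% among those with a symbol. EIF4B and EIF3I, factors that start translation, had medians of 137.3 and 98.9 CPM in H1 and 206.4 and 141.3 CPM in H2, with log2 fold changes of 0.70 ± 0.09 and 0.49 ± 0.07. The ribosomal protein genes RPL19 and RPL13 went in opposite directions, at 0.50 ± 0.09 and -0.58 ± 0.14, and ribosomal protein genes have processed copies that can share reads. EEF2, the elongation factor that moves the ribosome along, had medians of 926.7 CPM in H1 and 886.3 CPM in H2 and was not called (adjusted p = 0.807).

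Enzymes of amino acid breakdown and of mitochondria were split. Of 16 tested, 7 were higher, 6 were lower and 3 were not called, beside 36.2% higher and 32.7% lower over all genes. Among those with a symbol 26.2% were higher and 50.2% lower. NDUFA4, a subunit of the respiratory chain, was at 60.3 to 126.4 CPM in H1 and 123.5 to 180.7 CPM in H2, a log2 fold change of 0.54 ± 0.07 (adjusted p = 9.08e-08) with 15 H2 libraries above all of H1. GOT2, the mitochondrial aspartate aminotransferase, had a log2 fold change of 0.37 ± 0.07, and DLD, the shared dehydrogenase subunit of the pyruvate and glycine systems, one of 0.36 ± 0.09.

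Genes lower in H2 included AGXT, which detoxifies glyoxylate, with medians of 87.1 CPM in H1 and 39.0 CPM in H2 (log2 fold change -1.10 ± 0.17), and ALDH4A1 of proline breakdown, with medians of 273.0 and 117.2 CPM (log2 fold change -0.96 ± 0.21). In the methionine and betaine cycle, SARDH and DMGDH catalyse neighbouring steps of choline oxidation. SARDH had medians of 69.7 CPM in H1 and 22.9 CPM in H2 and fell by 1.01, and DMGDH had medians of 178.4 and 209.4 CPM (log2 fold change 0.26 ± 0.12, adjusted p = 0.0604). The call of DMGDH was lost in 5 alternatives, among them the steers with a library in 1 phase (adjusted p = 0.112) and in both phases (adjusted p = 0.17), at log2 fold changes of 0.26 and 0.33. AHCY, which splits S-adenosylhomocysteine, had a log2 fold change of 0.30 ± 0.11, and BHMT2, a homocysteine methyltransferase, one of 0.03 ± 0.17 (adjusted p = 0.901).

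Lipid and sugar metabolism genes did not share a direction. Of 15 tested, 3 were higher, 5 were lower and 7 were not called. Beside them stand 36.2% higher and 32.7% lower over all genes, and 26.2% higher and 50.2% lower among those with a symbol. PPP1R3C, which directs a phosphatase to glycogen, had medians of 229.3 CPM in H1 and 288.4 CPM in H2 (log2 fold change 0.65 ± 0.23, adjusted p = 0.0138). G0S2, an inhibitor of triglyceride breakdown, had medians of 13.6 and 7.51 CPM and was lower (adjusted p = 0.000357), and TKFC, which phosphorylates the products of fructose breakdown, had medians of 219.9 and 111.6 CPM (log2 fold change -0.69 ± 0.18). DGAT2, the last enzyme of triglyceride synthesis, had 18.3 to 58.1 CPM in H1 and 28.0 to 77.8 CPM in H2 and was not called (log2 fold change 0.18 ± 0.12, adjusted p = 0.178). APOC3, an apolipoprotein that slows triglyceride clearance, was not called either (0.16 ± 0.14, adjusted p = 0.312).

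Of 11 leukocyte genes tested, 3 were lower, 1 was higher and 7 were not called, beside 68.9% called and 32.7% lower over all genes. Among those with a symbol 76.3% were called and 50.2% were lower. PTPRCAP, which binds the leukocyte phosphatase CD45, had 2.65 to 7.83 CPM in H1 and 0.465 to 3.12 CPM in H2 (log2 fold change -1.56 ± 0.18, adjusted p = 1.36e-08). UNC13D, which primes cytotoxic granules for release, fell by 1.41. The Fc receptor FCGR2B had medians of 36.3 and 34.4 CPM and the lymphocyte receptor GPR174 had medians of 2.10 and 2.08 CPM in H1 and H2, and neither was called. No gene of the 11 cell type marker lists had a symbol, so the cell makeup of the biopsies could not be compared by markers. The fibrinogen genes FGG and FGA, made by hepatocytes, were at no less than 5672 and 5502 CPM in every library.

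Of 11 acute phase and complement genes tested, 4 were higher, 2 were lower and 5 were not called, beside 36.2% higher over all genes. Among those with a symbol 26.2% were higher and 50.2% lower. HP and LBP varied widely between steers, with SDs on the log2 scale of 1.83 and 0.64 in H1 and 2.72 and 1.02 in H2. C5 and F5, with SDs of 0.24 in H1 and of 0.41 and 0.42 in H2, were near the median gene. HP encodes haptoglobin, which binds free haemoglobin. It ranged from 27.4 to 2793 CPM in H1, with a median of 124.1, and from 26.2 to 25916 CPM in H2, with a median of 189.1. The highest value belonged to the H2 library of steer 419, and the next highest H2 value was 2041 CPM. HP was called by edgeR with the largest positive fold change among the named genes (log2 fold change 1.84 ± 0.91, adjusted p = 0.0765). DESeq2 did not call it (0.33, adjusted p = 0.65). Without the library of steer 419 the edgeR log2 fold change was -0.12 (adjusted p = 0.887).

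The same library was the highest H2 library for several other genes. LBP, the lipopolysaccharide binding protein, was at 1280 CPM in steer 419 and at no more than 541.5 CPM in the other 16 H2 libraries. Its log2 fold change was 0.60 ± 0.29 (adjusted p = 0.073) and 0.19 without steer 419 (adjusted p = 0.495). FGA had a log2 fold change of 0.33 ± 0.14 (adjusted p = 0.0328), and of 0.24 without that library (adjusted p = 0.107). FGG was at 0.51 ± 0.15 with all libraries and 0.40 without that one (adjusted p = 0.0159). It was not called in the 4 steers with both phases (0.19, adjusted p = 0.747), of which 2 rose and 2 fell, or in the high RFI steers (0.35, adjusted p = 0.198). SERPINA3, the antichymotrypsin gene, was at 1988 CPM in steer 419 and had a median of 342.8 CPM in the other H2 libraries. The serum amyloid A gene M-SAA3.2 was not highest in that library. It was at 0.907 CPM in steer 419, and the other H2 libraries had a median of 0.390 CPM and reached 10.1 CPM.

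For IFI44, an interferon-induced gene, leaving out the library of steer 419 made a call appear in the edgeR fit. The gene had 10.2 to 23.4 CPM in H1, with a median of 15.5, and a median of 8.52 CPM in H2, where steer 419 stood at 98.7 CPM and 10 libraries lay below all of H1. With all 37 libraries the log2 fold change was -0.06 ± 0.29 (adjusted p = 0.867), and without steer 419 it was -0.63 (adjusted p = 0.00354). For TNC, the matrix protein tenascin C, the log2 fold change moved from -0.96 ± 0.38 to -1.53 (adjusted p = 3.89e-05) without steer 419. Over all genes, 8918 were called without that library.

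Of the 27 pathway lists, 21 held 1 to 6 genes with a symbol each, and 6 held 0. The proteasome gene PSMB2 had a log2 fold change of 0.26 ± 0.06, and HSD17B6, a steroid dehydrogenase, one of 0.22 ± 0.07. ALAS1, the first enzyme of haem synthesis, had a log2 fold change of 0.48 ± 0.14 and the zinc importer gene SLC39A4 one of -1.53 ± 0.32. GADD45G, a stress-induced gene, had one of -1.28 ± 0.27, and TNFAIP3, an inhibitor of NF-kB, one of -0.12 ± 0.12 (adjusted p = 0.367). Of 838 genes on the pathway lists, 55 had a symbol, so no list was covered to the extent that a statement on the pathway would need.

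Among genes without a symbol, the smallest p-values belonged to ENSBTAG00000014032, at 55.9 ± 7.58 CPM in H1 and 90.0 ± 9.42 CPM in H2 (SD, n = 20 and 17), and to ENSBTAG00000027635, at 12.1 ± 2.83 CPM in H1 and 5.01 ± 1.22 CPM in H2. The phases did not overlap in either gene, and both had an adjusted p of 5.58e-10.

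The 4 steers with a library in both phases allowed a comparison within animals. To keep the choice of genes apart from these steers, genes were called in the 16 H1 and 13 H2 libraries of the other steers. Of the 8259 genes so called and measured, 5634 (68.2%) moved in the same direction in all 4 steers, and 8 moved the opposite way in all 4. Over all genes tested, 26.1% rose and 25.6% fell in all 4 steers. The mean of the 4 differences had the direction of the other steers in 7988 genes (96.7%). Agreement was highest for steers 1100 (94.8%) and 1320 (92.5%), and lower for steers 307 (87.1%) and 364 (83.4%), whose H2 libraries also scored lowest of the 4 on the first principal component, at 7.70 and -7.21.

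For CCND1 the differences within steers were -1.71, -1.69, -0.66 and -0.80 on the log2 scale in steers 1100, 1320, 307 and 364. IRS2 fell by 3.63 and 3.51 in steers 1100 and 1320 and by 1.75 and 0.52 in steers 307 and 364. In H2 it was at 0.673 and 0.329 CPM in steers 1100 and 1320, so these 2 falls depend on few reads. PRDX6 rose in every steer, by 0.73, 0.84, 0.69 and 0.76. For HP the differences were -5.27, -1.35, 2.80 and -4.90 in the same order. Large falls thus varied more between the 4 animals than the rises of PRDX6 or EMC3, and HP had no common direction. The smallest two-sided p that an exact sign-flip test of 1 gene allows with 4 animals is 0.12, so no such test was run. The fit over these 4 steers across all genes, with steer as block, called 5682 genes.

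**Figure D5:**
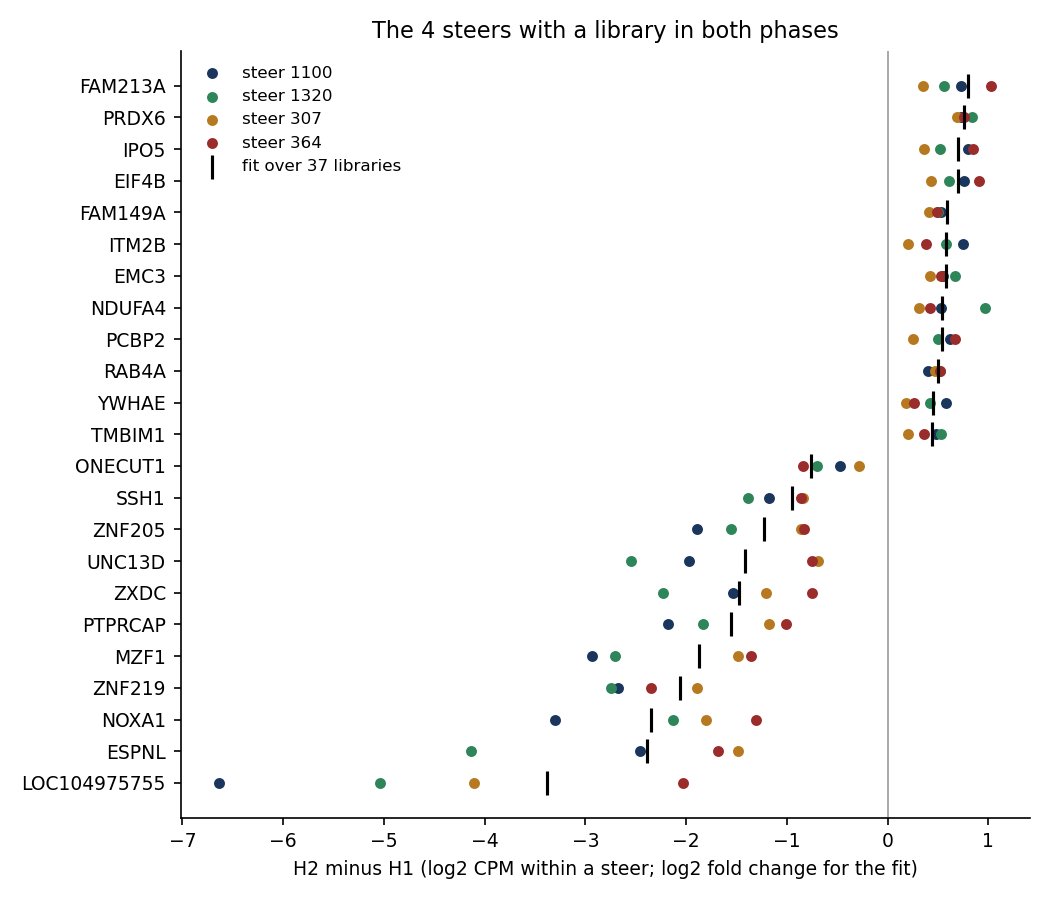
Difference H2 minus H1 in log2 CPM (x axis) within each of the 4 steers with a library in both phases (coloured points), and log2 fold change of the fit over 37 libraries (black bars), for the 12 higher and 11 of the 12 lower named genes with the smallest p (y axis). All points lie on the side of 0 that the fit gives, though these steers were part of that fit, and points of the lower genes are spread more widely.

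The study also held 6 CH libraries of the ZG phase, which lay between H1 and H2 in time and differed from both in diet. Of their steers 3 also had an H1 library, and 1 of those an H2 library. On a common normalization the medians of CCND1 in H1, ZG and H2 were 11.1, 7.22 and 3.71 CPM, and for EMC3 they were 112.6, 149.5 and 173.0 CPM. In HSPA1A and ALAS1 the ZG median lay above both others, with medians of 283.4, 317.3 and 149.3 CPM for HSPA1A and of 179.2, 423.5 and 209.7 CPM for ALAS1. Of the 8991 called genes, 6911 (76.9%) had a ZG median between those of H1 and H2, against 26.4% of the genes not called. Called genes were chosen for a gap between H1 and H2, so a larger share among them follows in part from that choice. The order of the medians is a description, since a time course and a change of diet cannot be told apart in these groups.

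Whether the phase difference depended on RFI group was tested as an interaction. No gene of 13228 tested (0%) was called by edgeR, the smallest adjusted p being 0.459, and 996 genes (7.53%) had an unadjusted p under 0.05. DESeq2 called 1 gene. Fitted apart, low RFI steers gave 7035 called genes and high RFI steers 6428. Of the 59 called genes named by the rule, 52 stayed called in the low RFI steers and 47 in the high RFI steers. The 7 calls lost in the low RFI steers were those of NR1D1 (0.67), ALAS1 (0.19), MID1IP1 (-0.064), ACMSD (0.066), DMGDH (0.30), LBP (0.35) and HP (0.22), with log2 fold changes in brackets. The 12 lost in the high RFI steers were those of BUB1, BUB1B, EPHX1 (0.21), FGG, FGA (0.13), HSD17B6 (0.092), AHCY (0.075), TNC (-0.30), DMGDH (0.19), LBP (0.81), SIK1 and NFIL3. The sign of SIK1 and NFIL3 was opposite there. In the low RFI steers NOCT had a log2 fold change of -0.93 (adjusted p = 0.161), and in the high RFI steers one of 1.15 (adjusted p = 0.00284), but their difference did not pass the test across all genes.

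The same comparison in HF steers, with 16 H1 and 13 H2 libraries, called 8489 of 13029 genes (65.2%), 3957 higher (30.4%) and 4532 lower (34.8%). The difference between the breeds in the phase change was called for 0 of 13403 genes by edgeR (0%, smallest adjusted p = 0.9997) and for 0 by DESeq2, with 326 genes (2.43%) at an unadjusted p under 0.05. In these fits 4 HF steers had a library in both phases and were counted as separate, as were the 4 CH steers. With steer as block, limma-voom also called 0 genes for the difference between the breeds. No library was shared between the breeds. Of the 8918 genes called in CH and tested in HF, 8753 (98.1%) had the same sign, and 7435 were called in the same direction in both, which is 82.7% of the CH calls and 87.6% of the HF calls.

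For named genes the values of the breeds can be set side by side. CCND1 had a log2 fold change of -1.22 in HF and -1.30 in CH, PRDX6 0.70 and 0.76, and IRS2 -2.77 and -2.01. ONECUT1 was at -0.31 in HF and -0.76 in CH, and FGA at 0.03 and 0.33. None of these differences between breeds passed the test.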

How the data were processed

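Liver RNA from punch biopsies of Charolais steers was made by the authors into TruSeq libraries and read from 1 end for 50 bases. The authors trimmed the reads, aligned them with STAR to the bovine genome UMD3.1 and deposited raw counts per Ensembl gene, without normalization. The submitters' processing notes give STAR 2.5.3a. The strand setting of the counts and the library preparation batches are not given in the sources used here. The counts covered 24616 genes. Gene symbols came only from the 352 identifiers listed by the study, 328 of them with a symbol, and positions and sequences were not used here.

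CPM were computed from the deposited counts with TMM factors, and log2 CPM with a prior count of 0.5 (2 for the principal components). The 37 CH H1 and H2 libraries were grouped by their labels and tested with edgeR 4.0.16 in R 4.3.3 (filterByExpr, TMM, robust quasi-likelihood fits with RFI group and phase as terms). A gene was called where its p, adjusted after Benjamini-Hochberg, was below 0.1. The SE of a log2 fold change is its size divided by the square root of F. Interactions of phase with RFI group and with breed were fitted in the same way, the first over the 37 libraries and the second with the HF libraries added. P-values measure the spread between steers, except that 4 CH steers, and 4 HF steers in the fits with HF, count in both phases. The labels pair the CH steers by steer number, and their libraries deviated together from the group means (correlations of 0.257 to 0.518, against a median near 0 between different steers). Measures of the libraries were compared with two-sided permutation tests of 100000 resamples, adjusted over 4 measures, and 2e-05 is the smallest p they can give.

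Depth was 9134700 to 37835024 reads per library. Counting error weighs more in genes at low CPM, and its size beside the spread between steers was not tested. On simulated data with a log2 fold change of 1 put into 200 of 13044 genes, the phase comparison recovered 93.5% with 13 false calls. The RFI interaction recovered 58% of 200 among 13228 genes, and the breed interaction 84.5% of 200 among 13403. The simulated libraries were independent of each other, and equal numbers of genes were raised and lowered. In the data 68.9% of genes were called between the phases and some steers had 2 libraries. The simulation therefore does not give the error rates of these comparisons, or the recovery of smaller differences.

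Named genes were, among those with a symbol, the 12 higher and 12 lower with the smallest p, the 5 largest changes each way with a mean of at least 1 CPM, and up to 4 members with the smallest p of each list. Of 74 genes, 3 are not reported here. Other genes appear as members of the groups by role. The comparison, the lists and the groups were chosen with earlier results of these data known. The alternatives were DESeq2 1.42.0, other scalings and filters, limma-voom 3.58.1 with quality weights or with steer as block, the steers with a library in 1 or in both phases, each RFI group alone, all 90 libraries in one fit, and single libraries left out. Tables and figures were made with scipy 1.17.1, pandas 2.3.3, matplotlib 3.10.9 and numpy 2.4.6 under Python 3.11.15.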

Additional observations from a re-analysis of the deposited data

Results flagged for a closer look

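Within the groups of 8 or 9 libraries of 1 phase and RFI group, Dixon's test at the 95% level was applied to the level of each named gene and to 5 measures of the libraries, 228 tests in all. In 46 tests 1 library stood apart, and these fell on 14 steers. For normally distributed values chance sets about 1 test in 20 apart. Gene levels were tested in CPM without logs, where a long upper tail raises that share. All flags were on the high side except those of NDUFA4 and IRS2 in the low RFI libraries of H1. The tests of 1 library are not independent either, so the number flagged does not measure an excess. The group of 11 high RFI libraries in H1 was not tested.

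Among the low RFI libraries of H2, steer 454 was highest on the second principal component, at 60.3 against 5.13 in the next library. It was also highest for MCM2 (7.04 CPM against 3.46), IRS2 (5.96 against 2.64), ZNF219 (3.101 against 1.42), LOC104975755 (0.716 against 0.265) and SLC39A4 (8.71 against 3.35). All 5 were lower in H2 over the whole comparison. HSPB1 stood at 309.6 CPM in this library (131.0 in the next), SARDH at 107.1 (47.8 in the next) and RPL13 at 166.9 (92.8 in the next). Genes higher in H2 were also extreme there, with PCBP2 at 397.2 CPM against 302.2, RPL19 at 556.4 against 328.5, EPHX1 at 3370 against 1600, and AHCY at 4855 against 2765. APOC3 was at 3905 CPM, against 1910 in the next library.

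In the same group, steer 493 was highest for ITM2B (1271 CPM against 838.3), FAM213A (150.6 against 101.7), NFIL3 (63.4 against 34.0), BUB1 (2.32 against 1.36) and BUB1B (1.88 against 1.06). Steer 1316 was highest for LBP (541.5 CPM against 264.2) and NOCT (38.4 against 15.4).

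Among the high RFI libraries of H2, steer 419 stood apart in 9 genes. HP was at 25916 CPM there and at 1314 in the next library, and LBP was at 1280 against 406.4. The fibrinogen genes FGG and FGA were at 31647 and 26414 CPM, against 19304 and 15909. C5 of the complement system was at 5508 CPM, against 2938. IFI44 was at 98.7 CPM against 15.7, TNC at 96.8 against 23.0, the lipid transporter gene ABCA6 at 310.7 against 130.7, and DGAT2 at 77.8 against 42.1. In this group steer 1320 was highest for C1R (131.4 CPM against 0.65), steer 1840 for NOCT (29.5 against 12.9), steer 359 for SSH1 (7.503 against 5.26), and steer 860 on the second principal component (23.6 against 9.78).

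Among the low RFI libraries of H1, steer 1792 was highest for HP (2793 CPM against 1111), C1R (27.1 against 0.77) and OSGIN1 (312.6 against 211.0) and lowest for NDUFA4 (60.3 against 82.5). Steer 950 was highest for BUB1 and BUB1B (6.75 CPM for each, against 3.51 for each) and MID1IP1 (49.5 against 31.6) and lowest for IRS2 (1.46 against 6.98). Steer 1831 was highest for DMGDH (289.4 CPM against 207.8). Steer 555 was highest for GADD45G (66.6 CPM against 24.4), steer 579 for HSPB1 (281.5 against 210.4) and steer 1100 for RAB4A (27.5 against 22.1).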

How the results depend on the processing

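The count of 8991 called genes stayed within 1.5 times in every alternative except the fit on the 4 steers with a library in both phases with steer as replicate block, which called 5682 genes, and the demand for a log2 fold change of at least 1, which left 1001. With steer as a replicate block over all 37 libraries, limma-voom called 9305 genes. DESeq2 called 9792 genes, the filter of 10 counts in every library 6729, an adjusted p under 0.05 gave 8141, and the fit without the H2 libraries of steers 454 and 493, chosen after seeing the data, 9375. The share of calls that were higher in H2, 52.6%, ranged from 48.2% to 53.7% apart from 45% with the 4 paired steers and 5.49% at a log2 fold change of at least 1. The interaction with RFI group called 1 gene with DESeq2, 1 without a filter and 1 with library size as a covariate, and 0 otherwise. The interaction with breed called 0 in every alternative. Leaving out 1 of the 4 paired steers, the genes with a common direction numbered 5802 to 6502. A prior count of 2 gave 5634.

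Of the 59 named genes that were called, 41 kept direction and call in each of the 20 alternatives that tested them. In the 4 paired steers GADD45G, FGG, HSD17B6, TNC, NFIL3, FGA and DMGDH were not called. HP changed sign under limma-voom with the replicate block (-0.078), in the 4 paired steers (-2.64) and without steer 419 (-0.12), LBP in the 4 paired steers (-0.0044), and SIK1 (0.0012) and NFIL3 (-0.086) in high RFI steers. Among genes not called, those that changed sign were GLDC (-0.074), DGAT2 (-0.076), F5 (-0.015), TNFAIP3 (0.10) and IFI44 (0.25) in high RFI steers, NOCT in low RFI steers (-0.93) and without the RFI covariate (-0.085), DGAT2 (-0.091) and BHMT2 (-0.12) in the 4 paired steers, IFI44 in the steers of 1 phase (0.13) and without steer 454 (0.0092), BHMT2 with 10 counts in every library (-0.040) and with the replicate block (-0.030), and C1R with DESeq2 (-0.34), the replicate block (-0.34), the steers of 1 phase (-2.41) and all 90 libraries (-0.55). DESeq2 did not call HP (0.33, adjusted p = 0.65). Nor was it called by limma-voom with quality weights (0.27, adjusted p = 0.74) or without a filter (1.85, adjusted p = 0.103). LBP was not called by limma-voom with quality weights (0.19, adjusted p = 0.507) or with the replicate block (0.25, adjusted p = 0.402). Its call was also lost with 10 counts in every library (adjusted p = 0.111) and with all 90 libraries (adjusted p = 0.101). Without the H2 library of steer 454 HP lost its call (1.76, adjusted p = 0.108). C5 and ABCA6, not called with all libraries, were called without it (0.24 and 0.30, adjusted p = 0.0567 and 0.0464). GLDC was called without steer 419 (0.19, adjusted p = 0.0347), in low RFI steers (0.35), in the 4 paired steers (0.27) and with the replicate block (0.15). DGAT2 was called in low RFI steers (0.41, adjusted p = 0.0182) and in the steers of 1 phase (0.28, adjusted p = 0.0775). TNFAIP3 was called lower in low RFI steers (-0.38, adjusted p = 0.0673) and with the replicate block (-0.24, adjusted p = 0.0446). C1R was called lower in the steers of 1 phase (adjusted p = 0.017), where steer 1792 alone was above 0.865 CPM. The cause was not tested. Genes near 1 CPM are limited by depth.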

Other observations

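The identifier named C1R, after a protease of the complement C1 complex, had a high count in few of the animals. In 34 of the 37 libraries it was at 0.865 CPM or less. The other 3 libraries were those of steer 1320, with 37.02 CPM in H1 and 131.4 CPM in H2, and of steer 1792, with 27.1 CPM in H1. Steer 1320 was thus high in both of its libraries, the phases having no common direction over the other steers. Low values of this identifier do not show that the gene was silent, and whether its reads fell on other identifiers was not tested.

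ASIP encodes the agouti signalling protein, a regulator of coat colour that is also expressed in fat. It was under the filter on low counts in most fits, and 16 of the 37 libraries had no read on it. In 6 libraries it had 74 to 244 reads, and in the other 31 libraries at most 3. The 6 libraries were those of low RFI steers 579 and 950 in H1 and of high RFI steers 359, 419, 860 and 1840 in H2. ASIP was the 1 gene called in the interaction of phase with RFI group by DESeq2, without a filter on low counts, and with library size as a covariate, and that call rests on these 6 animals.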
